A study of Mus musculus and Homo sapiens with 20 samples.

Results

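The genes described here are 9 that mark megakaryocytes and the platelets they shed. They are ITGA2B and ITGB3, VWF, PF4, GP1BA, GP1BB, GP5 and GP9, and TUBB1. They were taken by gene symbol from RNA-seq count tables of 2 cell lines, HPC-7, a mouse haematopoietic precursor line, which is the main one here, and K562, a human line from chronic myeloid leukaemia that carries the BCR-ABL1 kinase. All 9 symbols were found in both tables, as 9 of 43626 rows for HPC-7 and as 10 of 63568 rows for K562, where ITGB3 had 2 gene IDs.

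HSP90i libraries came from cells given NVP-AUY922, an inhibitor of the HSP90 chaperones, for 16 h, at 50 nM in HPC-7 and 300 nM in K562. Control libraries came from the same line with the solvent DMSO, as the columns are named. Each group had 3 libraries. Mouse embryonic fibroblasts (MEF; 200 nM for 16 h against Control, 3 libraries each) serve below as a line outside the blood. No group carried an engineered mutation that the labels name. The dose changed with the line, and K562 also differed from the other lines in species. Whether the replicates came from different cultures is not in the labels, so each p-value reflects the spread of these 3 libraries a group, and that spread may be technical.

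A megakaryocyte is the bone marrow cell that fragments into platelets, and it arises from progenitors that can also give red cells. Integrin αIIbβ3 (ITGA2B with ITGB3) is the platelet receptor for fibrinogen, and its α subunit, CD41, also appears on early blood progenitors. The GPIb-IX-V complex binds von Willebrand factor and tethers platelets to a damaged vessel wall. GATA1 with its cofactor FOG1, RUNX1, TAL1 and ETS factors such as FLI1 drive the genes of this lineage, and the hormone thrombopoietin drives its growth.

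Library totals were 10131491 to 16859394 counts in HPC-7, 7936066 to 10950573 in K562 and 10542305 to 22872539 in MEF. Levels are given as CPM, counts scaled to the total of the library, which are not divided by gene length, so levels of different genes are not compared. Fold changes, on the log2 scale, put HSP90i over Control and carry the standard error (SE), and n = 3 libraries per group throughout. A gene was called where its Benjamini-Hochberg adjusted p, over all genes tested in the line by edgeR's quasi-likelihood test, was under 0.05. Floors, set at 3 counts, cover counting error only. In these bulk libraries, fewer cells of a type and less RNA per cell cannot be told apart.

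In HPC-7, 8 of the 9 genes had enough counts to be tested. Of these, 7 rose and 1, Pf4, fell after HSP90 inhibition. In this comparison 73.1% of all 11703 tested genes were called, 36.5% higher and 36.6% lower, so being called does not set a member apart. The even split depends on the scaling. Upper quartile scaling gave 4590 genes higher and 3999 lower, and library size alone 4237 higher and 4297 lower. The median log2 fold change was 1.67 over the 8 tested members and 0.00 over all tested genes, the latter 0.05 with upper quartile scaling. The members were chosen with earlier results of these data known, so these medians are a description and not a test. In each of the 8 genes the 3 HSP90i libraries lay beyond all 3 Control libraries, as they did in 77.5% of all tested genes (38.3% all above, 39.2% all below).

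Upstream sequence was read for the 7 members with a window in the RefSeq promoter table for GRCm38.p6, 250 bases before the transcript start that table uses, which for Gp1ba lies just inside the listed gene span. The whole window of Gp9 (chr6:87777820-87778069) lies within the listed span of Gp9. The windows of Itga2b, Gp5, Gp1ba and Pf4 are shown because 3 of these genes rose and the fourth fell. Each reads 5′ to 3′ on the gene's strand. Capitals mark matches, on either strand, to the ETS core AGGAAG or to a GATA site spelled AGATAA or TGATAA.
Itga2b (chr11:102469884-102470133, minus strand): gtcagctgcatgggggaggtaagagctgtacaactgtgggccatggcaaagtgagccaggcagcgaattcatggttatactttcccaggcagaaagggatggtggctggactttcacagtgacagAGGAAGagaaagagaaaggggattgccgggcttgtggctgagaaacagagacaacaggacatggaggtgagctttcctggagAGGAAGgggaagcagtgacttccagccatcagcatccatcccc
Gp5 (chr16:30310782-30311031, minus strand): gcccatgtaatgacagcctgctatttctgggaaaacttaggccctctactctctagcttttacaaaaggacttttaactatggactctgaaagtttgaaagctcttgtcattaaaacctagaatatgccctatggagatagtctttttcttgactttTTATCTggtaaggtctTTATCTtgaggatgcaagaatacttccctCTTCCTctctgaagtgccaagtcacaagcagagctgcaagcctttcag
Gp1ba (chr11:70638872-70639121, plus strand): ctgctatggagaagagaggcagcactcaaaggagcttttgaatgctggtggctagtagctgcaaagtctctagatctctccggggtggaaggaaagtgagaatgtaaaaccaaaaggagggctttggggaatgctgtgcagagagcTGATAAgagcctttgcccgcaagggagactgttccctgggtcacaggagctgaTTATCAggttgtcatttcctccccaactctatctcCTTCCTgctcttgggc
Pf4 (chr5:90772185-90772434, plus strand): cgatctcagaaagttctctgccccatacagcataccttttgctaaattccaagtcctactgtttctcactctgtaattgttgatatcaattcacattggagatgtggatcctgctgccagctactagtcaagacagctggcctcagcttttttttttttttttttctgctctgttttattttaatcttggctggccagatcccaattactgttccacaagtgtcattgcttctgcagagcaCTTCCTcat
The ETS core AGGAAG occurred in 6 of the 7 windows, against 29.5% of all 32851 windows in the table, in which a gene with several starts counts more than once. Pf4, which fell, holds it as Itga2b, Gp5, Gp1ba, Gp9 and Tubb1 do, all of which rose, and Gp1bb does not. In Itga2b the matches lie 125 to 120 and 43 to 38 bases before the start. The ETS matches of Gp9 and Gp1ba, each 16 to 11 bases before the start used, lie inside the listed spans of these genes. A GATA site spelled AGATAA or TGATAA occurred in 2 of the 7 windows, those of Gp1ba and Gp5, against 16.6% of all windows. Other spellings of a GATA site were neither searched nor marked. The RUNX core TGTGGT was in the Gp9 window inside the gene span (1 of 7, against 14.0%). The heat shock element, by its name alone, was in 0 of the 7 windows and in 0.466% of all. The motifs do not overlap within these windows, and a match describes the letters only.

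Both integrin subunits rose about equally. Itga2b (ENSMUSG00000034664, chromosome 11, 102453297 to 102469883, GRCm38.p6) had 1088, 891 and 956 CPM in HSP90i libraries, against 300.0, 301 and 319 CPM in Control libraries. The groups did not overlap, and the Control libraries lay much closer together than the HSP90i libraries. The means were 978 ± 100.4 CPM with HSP90i and 307 ± 10.8 CPM in Control (SD), and the log2 fold change was 1.68 ± 0.09 with an adjusted p of 4.07e-07 in edgeR's quasi-likelihood test. Itgb3 (ENSMUSG00000020689, chromosome 11, 104608000 to 104670476) had 1104, 801 and 1023 CPM in HSP90i libraries, against 320.1, 307 and 303 CPM in Control libraries. Its lowest treated library was still more than 2-fold above its highest Control library. The log2 fold change of Itgb3 was 1.66 ± 0.11 (adjusted p = 1.44e-06, edgeR).

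The count of Itga2b per count of Itgb3 was 0.985, 1.11 and 0.935 in HSP90i libraries, against 0.937, 0.979 and 1.05 in Control libraries. These ratios overlapped between the groups, while both subunits roughly tripled.

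**Figure D1:**
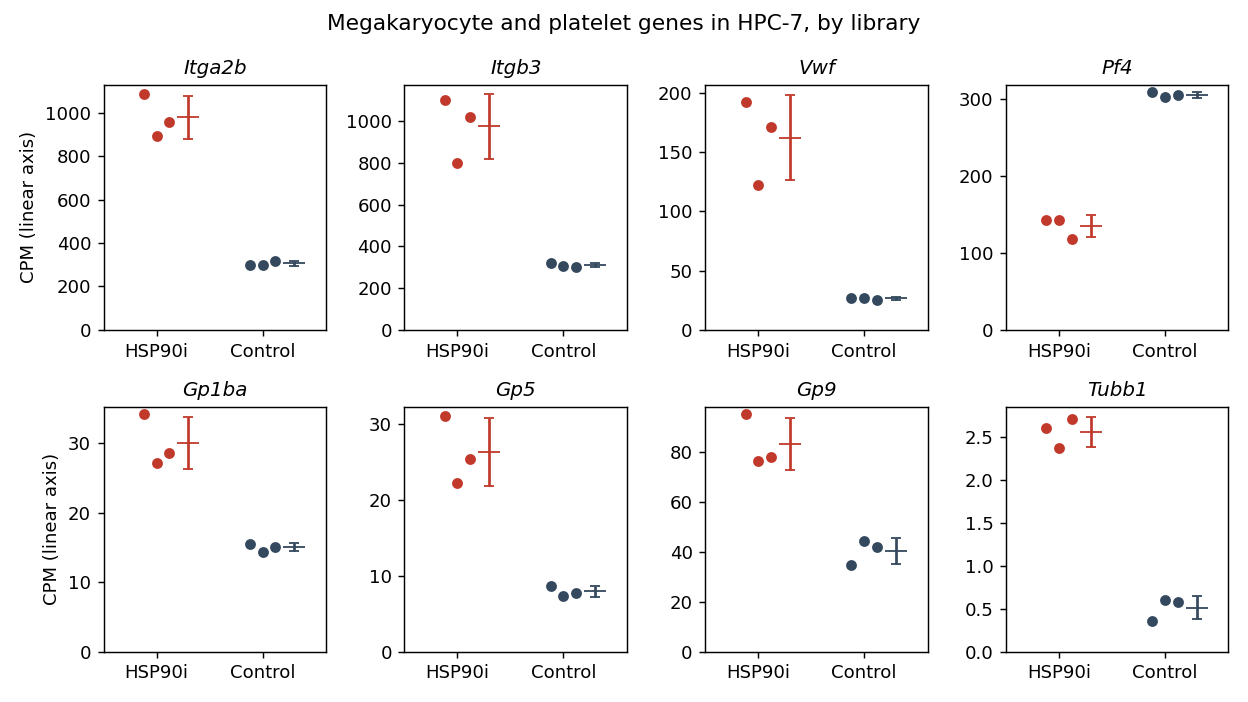
CPM of the 8 tested genes in HPC-7 (linear axes from 0), with HSP90i libraries on the left and Control libraries on the right of each panel. Points are single libraries and bars the mean ± SD (n = 3 each). The treated libraries lie above all Control libraries in 7 genes and below them in Pf4, where they read 143, 143 and 118 CPM with HSP90i, against 308, 301 and 304 CPM in Control.

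Vwf, which encodes von Willebrand factor, the large adhesive protein that megakaryocytes and endothelial cells store, had the largest estimated change among the members, with a 95% interval (2.27 to 2.97) that overlaps the one of Tubb1. Vwf (ENSMUSG00000001930, chromosome 6, 125552948 to 125686679) had 192, 122 and 171 CPM in HSP90i libraries, against 27.2, 26.7 and 25.5 CPM in Control libraries. The treated libraries differed among themselves but all lay far above Control. The means were 162 ± 35.9 CPM with HSP90i and 26.5 ± 0.849 CPM in Control (SD), and the log2 fold change was 2.62 ± 0.16 with an adjusted p of 6.74e-07 in edgeR's quasi-likelihood test. Vwf was also higher relative to Itga2b, with 0.177, 0.137 and 0.179 counts per count of Itga2b in HSP90i libraries, against 0.0905, 0.0890 and 0.0800 in Control libraries.

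Vwf is also an endothelial gene. Of the 10 endothelial markers listed, 3 were tested in HPC-7, 2 rose and 1 fell, where 73.1% of all tested genes were called. Pecam1, an adhesion receptor that platelets and leukocytes also carry, rose by 2.45 ± 0.13 (log2) and Tie1 by 0.92 ± 0.11, while Egfl7 fell by 1.33 ± 0.18. Tek, Emcn, Cldn5 and Robo4 had 0 counts in all libraries, and Cdh5, the endothelial cadherin, had 2 counts over the HSP90i libraries and 0 over the Control libraries. Kdr, a VEGF receptor, had 5 counts over the HSP90i libraries and 0 over the Control libraries. The part of endothelial cells in the rise of Vwf was not tested. The summed level of the list was 69.2 to 75.1 CPM in HSP90i libraries and 34.9 to 39.4 CPM in Control libraries.

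Of the von Willebrand factor receptor, 3 of 4 subunit genes rose, by about 2-fold for the ligand-binding chain and Gp9 and by over 3-fold for Gp5. Gp1ba, the chain that binds the ligand (ENSMUSG00000050675, chromosome 11, 70639102 to 70643986), had 34.2, 27.1 and 28.6 CPM in HSP90i libraries, against 15.5, 14.4 and 15.1 CPM in Control libraries. Its log2 fold change was 1.01 ± 0.11 (adjusted p = 2.32e-05, edgeR). All treated libraries were higher and the groups did not overlap. Gp9, the small chain GPIX needed for the complex to reach the surface (ENSMUSG00000030054, chromosome 6, 87776131 to 87779786), had 94.9, 76.3 and 77.9 CPM in HSP90i libraries, against 34.6, 44.4 and 42.0 CPM in Control libraries, and the log2 fold change was 1.06 ± 0.12 with an adjusted p of 2.54e-05 in edgeR's quasi-likelihood test. Gp5, which encodes the chain that thrombin cleaves (ENSMUSG00000047953, chromosome 16, 30307685 to 30310781), had 31.1, 22.3 and 25.5 CPM in HSP90i libraries, against 8.72, 7.40 and 7.77 CPM in Control libraries. Its log2 fold change of 1.73 ± 0.15 (adjusted p = 4.11e-06, edgeR) was close to that of the integrin genes.

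Within the complex the chains did not keep one proportion. There were 1.10, 1.22 and 1.12 counts of Gp1ba per count of Gp5 in HSP90i libraries, against 1.78, 1.94 and 1.95 in Control libraries, with no overlap between groups. The ratio of Gp1ba to Gp9 overlapped between groups, at 0.361, 0.356 and 0.367 in HSP90i libraries and 0.449, 0.324 and 0.360 in Control libraries.

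Gp1bb, the β chain of GPIb, was the member that could not be tested in HPC-7. It had 1, 0 and 0 counts in HSP90i libraries, against 0, 0 and 1 counts in Control libraries, so a change was not detectable at this depth. The other 3 chains were well above 0 in every library. In the GRCm38.p6 annotation Gp1bb (chromosome 16, 18620319 to 18622403) shares 593 bases with its neighbour Septin5, and reads in that stretch may have been counted for either gene or for neither. Septin5, listed as Sept5, was itself nearly absent from HPC-7. In MEF, by contrast, Gp1bb read 2.94, 2.26 and 2.41 CPM with HSP90i and 2.89, 3.05 and 2.28 CPM in Control, in a line where Gp1ba, Gp5 and Gp9 had no more than 5 counts in any library. These groups overlapped, and Gp1bb was not called there (−0.12 ± 0.19, adjusted p = 0.596, edgeR). Sept5 had 734, 393 and 385 counts with HSP90i and 1396, 668 and 610 counts in Control in MEF, and its part in the Gp1bb counts was not tested.

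Pf4 was the only tested member that fell. It encodes platelet factor 4 (CXCL4), a chemokine of the platelet α granule (ENSMUSG00000029373, chromosome 5, 90772435 to 90773383). Pf4 had 143, 143 and 118 CPM in HSP90i libraries, against 308, 301 and 304 CPM in Control libraries. The means were 135 ± 14.2 CPM with HSP90i and 305 ± 3.41 CPM in Control (SD), and the log2 fold change was −1.17 ± 0.08 with an adjusted p of 1.55e-06 in edgeR's quasi-likelihood test. The Control libraries were close together and all treated libraries lay well below them, at a fold of 0.445. Counts of Pf4 per count of Itga2b were 0.131, 0.161 and 0.124 in HSP90i libraries, against 1.03, 1.003 and 0.954 in Control libraries. Ppbp, the α granule chemokine gene 2371 bases before Pf4 on the same strand, had too few counts for a test, with 19 counts over the HSP90i libraries and 14 over the Control libraries.

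**Figure D2:**
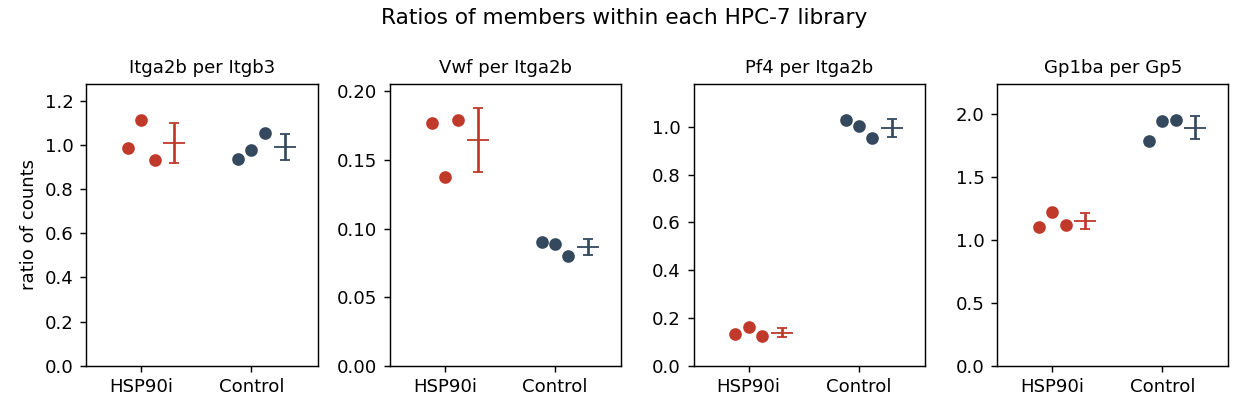
Ratios of counts between members within each HPC-7 library (linear axes from 0), HSP90i on the left and Control on the right, with the mean ± SD (n = 3 each). The Itga2b to Itgb3 ratio overlaps between groups, while Pf4 per Itga2b is 0.124 to 0.161 with HSP90i and 0.954 to 1.03 in Control.

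Tubb1, the β1 tubulin of the platelet's marginal microtubule ring, stayed low but rose. Tubb1 (ENSMUSG00000016255, chromosome 2, 174450595 to 174458380) had 36, 24 and 30 counts in HSP90i libraries, against 6, 7 and 7 counts in Control libraries, or 2.60, 2.37 and 2.71 CPM against 0.356, 0.602 and 0.578 CPM. The groups did not overlap, and the log2 fold change was 2.36 ± 0.28 (adjusted p = 3.13e-05, edgeR). It rests on the fewest counts of the 8 and has the widest 95% interval, 1.74 to 2.98.

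The treated libraries differed in the same order in most members. HSP90i replicate 2 was the lowest treated library in 7 of the 7 genes that rose, and HSP90i replicate 1 the highest in 6 of them. Among all HPC-7 genes called higher, replicate 2 was the lowest treated library in 57.1% and replicate 1 the highest in 49.1%. Over all 8557 called genes the median distance from the Control mean, in the called direction, was 0.78 (log2) in replicate 1, 0.65 in replicate 2 and 0.79 in replicate 3. The part of this difference between libraries in the members' spread was not tested.

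In K562, 1 of the 9 genes, ITGA2B, had enough counts to be tested, and it was not called. ITGA2B (ENSG00000005961.13) had 36.9, 32.2 and 31.1 CPM in HSP90i libraries, against 43.8, 32.0 and 29.4 CPM in Control libraries. The groups overlapped, and Control replicate 1 was the highest of the 6. The log2 fold change was 0.02 ± 0.19 with a 95% interval of −0.42 to 0.47 (unadjusted p = 0.904, adjusted p = 0.954, edgeR), so this interval excludes a change of the size seen in HPC-7. The call count of 0 was the same at an unadjusted p under 0.05 and with DESeq2. Among all 13456 tested K562 genes 11.1% were called, and the groups did not overlap in 36.0% (11.4% all above, 24.6% all below). TMM scaling gave 688 genes higher and 803 lower, while upper quartile scaling gave 535 higher and 981 lower. Library size alone gave 435 higher and 1195 lower, with the median of all genes at −0.13 in place of −0.02. Without Control replicate 1 the ITGA2B estimate was 0.26 (adjusted p = 0.0917, edgeR).

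The other K562 members were at or near 0. PF4, GP1BB and GP9 had 0 counts in all libraries, which allows up to 0.0977 CPM over the HSP90i libraries and 0.103 CPM over the Control libraries (3 counts per group). ITGB3 had 2, 3 and 4 counts in HSP90i libraries, against 0, 1 and 7 counts in Control libraries, all under 1 of its 2 gene IDs. TUBB1 had 4, 1 and 6 counts in HSP90i libraries, against 0, 5 and 1 counts in Control libraries. GP1BA had 5, 3 and 2 counts in HSP90i libraries and 6, 2 and 4 in Control libraries, and VWF and GP5 had no more than 2 counts in any library. A change in these genes was not detectable at this depth. SEPT5, the human neighbour of GP1BB, had 931 to 1169 counts in HSP90i libraries and 1835 to 2560 in Control libraries of K562, while GP1BB was at 0.

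**Figure D3:**
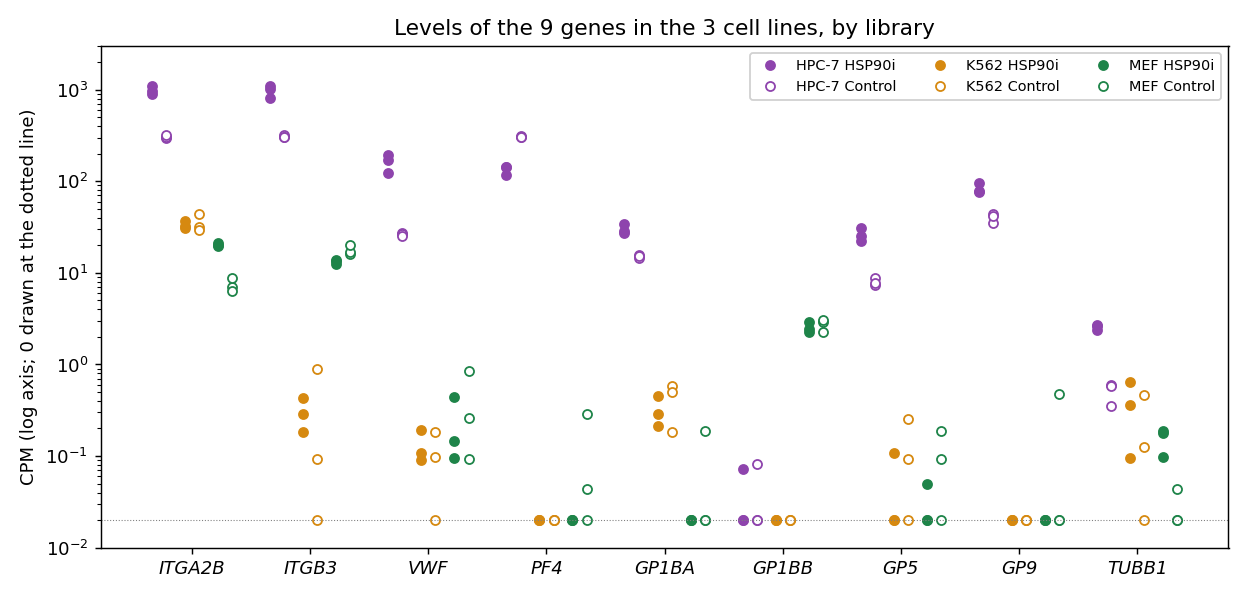
CPM of the 9 genes in each library of HPC-7, K562 and MEF (log axis, values of 0 drawn at the dotted line), filled points HSP90i and open points Control. In HSP90i libraries the members other than Gp1bb are highest in HPC-7. Only ITGA2B exceeds 1 CPM in K562, and Itga2b, Itgb3 and Gp1bb exceed 1 CPM in every MEF library.

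In MEF, Itga2b and Itgb3 were both detected and moved in opposite directions. Itga2b had 19.7, 21.4 and 20.1 CPM in HSP90i libraries, against 6.995, 6.29 and 8.82 CPM in Control libraries, and the log2 fold change was 1.45 ± 0.12 with an adjusted p of 5.77e-06 in edgeR's quasi-likelihood test. Itgb3, which fibroblasts also use in the vitronectin receptor αVβ3, had 12.5, 13.9 and 13.5 CPM in HSP90i libraries, against 16.0, 16.7 and 20.2 CPM in Control libraries, and the log2 fold change was −0.44 ± 0.11 with an adjusted p of 0.00537 in edgeR's quasi-likelihood test. Neither gene's groups overlapped, which held for 76.2% of all tested MEF genes (38.4% all above, 37.8% all below), and 73.4% were called, 35.1% higher and 38.2% lower. Whether the 2 mouse lines differed was tested with a term for the difference in response, fitted to all 12 of their libraries under one scaling, where the dose differed with the line and the effects of these cannot be told apart. The Itgb3 response differed by 1.98 ± 0.17 (log2, HPC-7 minus MEF, adjusted p = 6.81e-07, edgeR), as responses did in 43.2% of all genes tested that way. For Itga2b the difference was 0.12 ± 0.16 (adjusted p = 0.595, edgeR), which does not show that the responses were alike; without MEF Control replicate 3 it was −0.03.

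The other genes of the platelet programme were described by 7 lists, 134 genes in all. In HPC-7, 118 were tested, of which 72 rose and 22 fell, that is 61.0% higher and 18.6% lower against 36.5% and 36.6% of all tested genes. The median log2 fold change over the 118 was 0.43. The lists were written with earlier results of these data known, so these shares describe the chosen genes and are not a test. In K562, 110 were tested, of which 5 rose and 13 fell, or 4.55% and 11.8% against 5.11% and 5.97% of all tested genes, with a median of −0.05 where all tested genes had −0.02. The K562 counts moved with single libraries, at 13 higher and 22 lower when Control replicate 1 was left out. Leaving out Control replicate 2, HSP90i replicate 1 or HSP90i replicate 3 gave 3 higher and 8 lower each time, and leaving out HSP90i replicate 2 gave 4 higher and 7 lower. The counts of single lists below stand against the same shares of all tested genes, 73.1% called in HPC-7 and 11.1% in K562.

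Among megakaryocyte transcription factors in HPC-7, 13 of 19 rose and 2 fell (median 0.60). Gata1, the central factor of the megakaryocyte and red cell lineages, had 105 ± 16.3 CPM with HSP90i and 23.0 ± 1.20 CPM in Control (SD), a log2 fold change of 2.21 ± 0.12. Runx1 rose by 1.20 ± 0.07, Tal1 by 1.04 ± 0.07 and Mafk, a partner of NF-E2, by 1.13 ± 0.09 (adjusted p of these 4 from 5.02e-07 to 2.38e-06, edgeR). The 4 were named for their small p, and the 2 that fell are not among them. In K562, 0 of 17 rose and 5 fell (median −0.31). GATA2 changed by −1.85 ± 0.12, MYB by −1.40 ± 0.16, RUNX1 by −1.01 ± 0.15 and GFI1B by −1.04 ± 0.24. The count of 5 became 3 without Control replicate 2 or any one HSP90i replicate, 9 without Control replicate 1, and 8 with library size alone or no filter. RUNX1 thus rose in HPC-7 and fell in K562, a difference across species that was not tested. GATA1, chosen after its values were seen, had 103 CPM with HSP90i and 204 CPM in Control in K562 (log2 fold change −0.90, adjusted p = 0.0364, edgeR). GFI1B and GATA1 each lost the call without Control replicate 2 or any one HSP90i replicate, while GATA2, MYB and RUNX1 kept theirs in 13 of 13 alternatives.

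Other platelet surface receptors had 16 of 19 higher and 2 lower in HPC-7 (median 0.82). Gp6, the collagen receptor, had 3.85 CPM with HSP90i and 0.488 CPM in Control, a log2 fold change of 2.96 ± 0.24. Clec1b, the podoplanin receptor CLEC-2, rose by 2.36 ± 0.17, F2rl2, a thrombin receptor that assists PAR4 on mouse platelets, by 2.05 ± 0.10 and Pear1 by 1.63 ± 0.09. With Gp6, these are the 4 genes named for their small p, and the 2 that fell are not among them. Jam3, an adhesion molecule chosen after its values were seen, had 0 counts in all Control libraries and 72 over the HSP90i libraries, at least 27.8-fold higher against a floor of 3 counts over the Control group. In K562, 1 of 12 rose and 2 fell, with the thromboxane receptor gene TBXA2R at −3.51 ± 0.44, F2RL3, which encodes PAR4, at −1.29 ± 0.25 and PEAR1 at 0.82 ± 0.15. The F2RL3 call was lost without HSP90i replicate 1, HSP90i replicate 2 or Control replicate 2, and the PEAR1 call without HSP90i replicate 1, HSP90i replicate 3 or Control replicate 2.

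Integrin activation and platelet signalling had 15 of 22 higher and 2 lower in HPC-7 (median 0.43). The kinase genes Src and Fyn rose by 1.72 ± 0.11 and 0.84 ± 0.07, and Lcp2, which encodes the adaptor SLP-76, rose by 1.19 ± 0.08. Apbb1ip, which encodes RIAM, a link from Rap1 to talin, changed by −1.25 ± 0.11. In K562 this list had 1 of 20 higher and 1 lower, RASA3 at 0.48 ± 0.12 and RASGRP2, an activator of Rap1, at −0.92 ± 0.15. RASA3 kept its call in 5 of 13 alternatives, losing it with no filter, with upper quartile scaling, with library size alone, and when any one library other than Control replicate 1 was left out. The RASGRP2 call was lost without HSP90i replicate 2 or 3.

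Thrombopoietin signalling had 6 of 14 higher and 2 lower in HPC-7 (median 0.11), so 57.1% were called where 73.1% of all tested genes were. Stat3 rose by 0.96 ± 0.07, Tyk2 by 0.69 ± 0.09, Stat5b by 0.62 ± 0.08 and Stat5a by 0.55 ± 0.08. These 4 genes were named for their small p within the list, and the 2 that fell are not among them. In K562, 1 of 14 rose and 3 fell, with SOCS1 at −2.50 ± 0.34, SOCS3 at −2.46 ± 0.25, the survival gene BCL2L1 at −2.26 ± 0.13 and SHC1 at 0.91 ± 0.13.

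The α granule cargo list, to which PF4 would belong, was mixed in HPC-7, with 4 of 9 higher and 3 lower (median 0.43). Serpine2 rose by 2.13 ± 0.15, Pdgfb by 1.85 ± 0.17 and Mmrn1, which encodes multimerin, by 0.56 ± 0.09, while Angpt1 changed by −1.18 ± 0.14, close to the value of Pf4. The summed level of the list was 1199 to 1406 CPM in HSP90i libraries and 1823 to 1881 CPM in Control libraries. Granule formation and release had 13 of 19 higher and 3 lower (median 0.45), including the membrane fusion gene Stx11 (1.70 ± 0.10), Ap3d1 (1.21 ± 0.08), Hps1 (0.89 ± 0.08) and Vipas39, a gene of α granule assembly (0.70 ± 0.07). In K562 each of these lists had 1 higher and 1 lower, of 10 and of 19 tested. CLU was at 2.21 ± 0.25 and PDGFA at −1.82 ± 0.43, and VIPAS39 was at 0.99 ± 0.12 and NBEAL2, the gene of grey platelet syndrome, at −0.50 ± 0.12. CLU and VIPAS39 kept their calls in 13 of 13 alternatives. PDGFA lost its call without Control replicate 2 or any one HSP90i replicate, and NBEAL2 without those libraries, without Control replicate 3 or with no filter.

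The proplatelet cytoskeleton was the list whose median was below 0 in HPC-7 (−0.15), with 5 of 16 higher and 8 lower. The tubulin genes went both ways. Tubb2b rose by 2.40 ± 0.11, like the platelet form Tubb1, whereas Tubb6 changed by −2.29 ± 0.19 and Tubb4b by −1.58 ± 0.12. Cfl1, which encodes the actin-severing protein cofilin, changed by −1.17 ± 0.09. β tubulin genes share much sequence, and reads could have been divided among them. In K562, 0 of 18 were called either way by edgeR, and 3 were called higher without Control replicate 1.

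**Figure D4:**
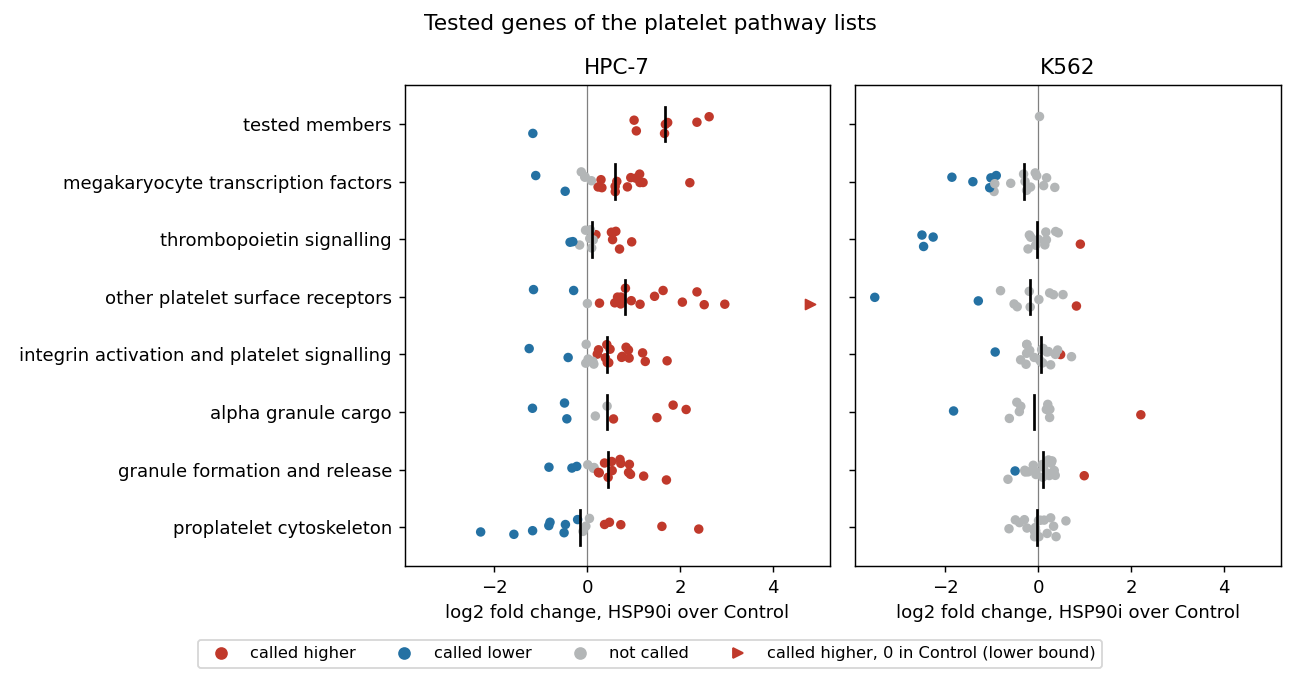
Log2 fold changes, HSP90i over Control, of the tested members and of the tested genes of the 7 lists, in HPC-7 (left) and K562 (right). Points are genes coloured by call, black bars the medians, and the triangle is Jam3 at its lower bound. Medians in HPC-7 run from −0.15 for the proplatelet cytoskeleton to 1.67 for the members.

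Markers of other blood lineages were also called in the same HPC-7 libraries. Of all tested genes there, 73.1% were called, 36.5% higher and 36.6% lower. The share called was 85.7% of the tested erythroid, 75% of the myeloid and 50% of the mast cell markers, so being called does not set them apart. Of 7 tested erythroid markers 4 rose and 2 fell, with Kel, a blood group antigen gene, at 2.58 ± 0.17 and Tfrc, the transferrin receptor, at −3.14 ± 0.30. Their summed level was 354 to 359 CPM in HSP90i libraries and 513 to 532 CPM in Control libraries, and Slc4a1 was at 0 throughout. Without Tfrc the sum ran the other way, at 282 to 327 CPM in HSP90i libraries and 124 to 136 CPM in Control libraries. Of 12 tested myeloid markers 8 rose and 1 fell, with the integrin gene Itgam at 2.67 ± 0.10, S100a9 at 2.91 ± 0.26, Lyz2 at 1.05 ± 0.09 and Cebpa at −0.90 ± 0.16, and a summed level of 1372 to 1551 CPM in HSP90i libraries and 1254 to 1354 CPM in Control libraries. Of 6 tested mast cell markers 2 rose and 1 fell, with Kit at 1.35 ± 0.08, Hdc at 1.94 ± 0.16 and Mitf at −1.33 ± 0.24. The summed level of this list was 3044 to 3295 CPM in HSP90i libraries and 1637 to 1687 CPM in Control libraries, with Fcer1a and Tpsab1 at 0. Without Kit it was 644 to 711 CPM in HSP90i libraries and 664 to 682 CPM in Control libraries, which overlap. In K562, 2 of 13 tested erythroid markers rose and 0 fell, 0 of 3 endothelial markers rose and 2 fell, 0 of 5 mast cell markers rose and 1 fell, and 0 of 4 myeloid markers were called. Of all tested K562 genes, 5.11% were called higher and 5.97% lower. The part of these lineages in the members' changes was not tested.

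The expression pattern most like that of Itgb3, the member with the highest mean CPM in HPC-7, was that of another member. Over the 12 mouse libraries, among 13527 other genes, Pearson's r of log2 (CPM + 0.5) was 0.99885 for Gp5, 0.99878 for Gp49a and 0.9983 for Fbxo9. Gp5 and Gp49a were thus nearly level. In MEF, Gp5 averaged 0.016 CPM with HSP90i and 0.094 CPM in Control, and Gp49a 0 and 0.126 CPM. The libraries behind each r fall into 2 lines, and the gap between the lines is shared by all 3 genes.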

How the data were processed

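RNA-seq counts of HPC-7, K562 and MEF were analysed, grouped by sample title. Columns named for DMSO were taken as the Control samples of that line and number. The authors deposited whole-number counts for each gene, not normalized. Tools named in the submitters' processing notes, without order or purpose, are featureCounts, TopHat2 2.0.13, Trim Galore, Picard, MACS2, Bowtie2 and DESeq2; the builds named there are mm10, hg38, GRCm38 and GRCh37. No source used here says whether the counting used strand. A list of ChIP-seq peaks was not used here.

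Genes were filtered with edgeR's filterByExpr, scaled with TMM and tested by quasi-likelihood in edgeR 4.0.16 under R 4.3.3, with Benjamini-Hochberg adjustment over all genes tested in a line, 11703 in HPC-7, 13456 in K562 and 12340 in MEF. CPM use the library total. The mouse interaction was fitted over 12 libraries. Simulated counts with known changes in a small share of genes were also run through these procedures. Most HPC-7 and MEF genes were called in the data, a setting that the simulation does not cover. Figures were drawn with matplotlib 3.10.9. All 9 mouse IDs carried the same symbol in the reference table of names. Positions and upstream windows came from RefSeq tables of GRCm38.p6, and motifs were searched on both strands.

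The members and lists were chosen with earlier results of these data known. The MEF test and the interaction, with their alternatives, were added after the counts had been seen. Named genes were all members and, per list and line, up to 4 called genes with the smallest p and an average of at least 1 CPM, and the 3 genes most like the most abundant HPC-7 member; some genes that this rule names are not reported here. The alternatives changed the scaling (upper quartile, RLE, none beyond library size), the filter (none, or 1 CPM in at least 3 libraries) or the tool (DESeq2 1.42.0), added the replicate number as a block, or left out each library in turn.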

Additional observations from a re-analysis of the deposited data

Results flagged for a closer look

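The responses of 2 of the 9 members differed between the mouse lines by the test of the interaction itself. Of all 13720 genes tested that way, 43.2% were called, so being called there does not set a member apart. For Itgb3 the difference was 1.98 ± 0.17 (log2, HPC-7 minus MEF, adjusted p = 6.81e-07, edgeR). Its treated libraries were 3 of 3 above every Control library in HPC-7, as in 38.3% of all tested genes there. In MEF they were 3 of 3 below, as in 37.8% of all tested genes there. For Vwf the difference was 3.28 ± 0.92 (adjusted p = 0.0098, edgeR). MEF held only 3, 1 and 5 counts of Vwf in HSP90i libraries and 6, 1 and 9 in Control libraries. That is too few for a test of MEF alone by the same filter. Without MEF Control replicate 3 the Vwf difference was 2.47 ± 1.12 and no longer called (adjusted p = 0.0934, edgeR).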

How the results depend on the processing

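All 8 tested HPC-7 members kept their direction and their call under all 13 alternatives, with the highest adjusted p of any at 0.000416 (Tubb1 without Control replicate 1, edgeR). The log2 fold changes ranged from 1.59 to 1.74 for Itga2b, 1.55 to 1.78 for Itgb3, 2.47 to 2.78 for Vwf, −1.23 to −1.09 for Pf4, 0.89 to 1.07 for Gp1ba, 1.57 to 1.83 for Gp5, 0.94 to 1.12 for Gp9 and 2.10 to 2.48 for Tubb1. In K562, ITGA2B was not called under any alternative. Its sign turned with library size alone (−0.071) and upper quartile factors (−0.053), and leaving out single libraries gave −0.10 to 0.26 (without HSP90i replicate 1, Control replicate 2 or Control replicate 3 it was below 0). The K562 genes called higher numbered 688, against 435 with library size alone, and those called lower 803, against 1195. Leaving out single K562 libraries gave 173 to 1922 higher and 171 to 1995 lower, and for the 7 lists 3 to 13 higher and 7 to 22 lower. With no filter on low counts, Gp1bb in HPC-7 (adjusted p = 0.953) and 5 further K562 members, of which TUBB1 had the lowest adjusted p (0.619), were tested and not called by edgeR. Libraries with the same replicate number did not deviate together in HPC-7 (r of −0.03, 0.02 and −0.12). In K562 every such pair had an r above 0 (0.30, 0.04 and 0.48), while MEF was mixed (0.31, −0.27 and −0.29). Pairs with different numbers ran from −0.12 to 0.14 in HPC-7, −0.41 to 0.17 in K562 and −0.36 to 0.44 in MEF. The main tests did not use the replicate number. With the replicate number as a block, 8 HPC-7 members and 0 K562 members were called. In K562 the block put ITGA2B at 0.05 ± 0.15. It called 872 K562 genes higher and 938 lower, against 688 and 803 without it. In MEF, Itga2b (1.38 to 1.59) and Itgb3 (−0.49 to −0.31) kept their calls under 13 alternatives. With single libraries left out, the difference between HPC-7 and MEF was 1.85 to 2.22 for Itgb3, −0.033 to 0.36 for Itga2b, turning sign without MEF Control replicate 3, and 2.47 to 3.98 for Vwf, not called without that library. Depth limits all K562 members but ITGA2B, and Gp1bb in HPC-7.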

Other observations

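The 7 platelet lists split the other way in MEF, where 26 of 96 tested genes were higher and 49 lower (27.1% and 51.0%, against 35.1% and 38.2% of all tested MEF genes), than in HPC-7, where 72 of 118 were higher and 22 lower (61.0% and 18.6%, against 36.5% and 36.6% of all tested HPC-7 genes); the sets of genes tested differ between the lines, and the difference was not tested. MEF Control replicate 3 held 5 counts of Gp9, 3 of Pf4 and 2 of Gp1ba. The other MEF libraries held no more than 1 count of Pf4 and 0 of Gp9 and Gp1ba. Among MEF libraries, Tubb1 had 2, 2 and 2 counts with HSP90i and 1, 0 and 0 counts in Control, under the limit for a test.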
